A study of Mus musculus with 24 samples.

Results

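The genes described here are 9 G protein-coupled receptors. Gpr84, Gpr35, Gpr18, Gpr65, Gpr132, Ptafr, Gpr34 and Gpr183 are linked to lipids, metabolites or protons, and Gpr162 is an orphan with no agreed ligand. The 9 were chosen by symbol from 24421 gene symbols, with earlier results of these libraries in view. All 9 passed the filter on low counts that kept 14693 genes. Total RNA of mouse bone marrow-derived macrophages, cells grown out of marrow precursors, was sequenced in 24 libraries from C57BL/6J mice aged 12 weeks. There are 6 groups of 4 libraries. Cells were wild-type (WT) or OGT knockout (KO), and cells of each genotype were left unstimulated (M0) or kept for 12 hours with 100 ng/ml LPS (labelled M1) or 10 ng/ml IL-4 (labelled M2). OGT is the enzyme that attaches N-acetylglucosamine to serines and threonines of intracellular proteins, and the series is about its part in macrophage activation. The labels do not say how the knockout was made (promoter, Cre line, deleted part of Ogt). A library is called by its group and its label's number, 1 to 4 for WT and 5 to 8 for KO. Nothing says whether these are separate animals or cultures, so p-values measure only the spread between libraries, which may be technical.

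Receptors for lipids, metabolites and protons let a macrophage read small molecules in its surroundings. A ligand on the outer face switches a heterotrimeric G protein on the inner face, which raises or lowers cyclic AMP or releases calcium, and so changes migration, phagocytosis and cytokine output. LPS, a bacterial cell wall component read by Toll-like receptor 4, drives the inflammatory programme of macrophages, and IL-4 drives the alternative one.

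Gene counts per library came to between 63429271 and 94942464 in 21 libraries and to between 172771 and 209368 in the other 3, which are WT LPS 1, WT LPS 2 and KO LPS 7. Levels are CPM, the counts scaled to a fixed effective library size. By counting error only, a gene with no count may have a level of up to 3 counts, which is 0.0303 to 0.055 CPM where the library is deep and 15.5 to 17.9 CPM where it is shallow. In LPS the shallow libraries therefore hold between 0 and 18 counts of each receptor except Gpr84, and the deep libraries carry the comparison. Within KO, libraries 5 and 6 stood apart from 7 and 8 in each state. Chi-square per degree of freedom over genes was 9.09 (5 with 6) and 8.51 (7 with 8) in M0, against 47 to 63.8 between the pairs. In IL-4 it was 15.7 and 28, against 49.1 to 74.8, and among the deep LPS libraries 7.65 for 5 with 6 and 68.8 and 80.8 for these with 8. The tests treat the 4 KO libraries as independent, and what the numbers stand for is not stated, so the results that are lost with numbers left out or summed in pairs are given beside them. Ogt itself was lower in KO in every state, at 35.4 ± 1.13 against 49.6 ± 2.64 CPM in M0, 40.6 ± 8.91 against 59.2 ± 5.93 in LPS and 33.3 against 54.4 in IL-4 (mean ± SD, n = 4), so transcript remained in KO. The summed CPM of 8 macrophage markers ranged from 11760 to 13370 in WT M0 and from 7300 to 9034 in KO M0, from 15420 to 15960 and 8671 to 10650 in LPS, and from 5547 to 6175 and 4946 to 5209 in IL-4. In M0 most of that sum is Lyz2, with a mean of 9306 CPM in WT and 5085 in KO. In KO its mean of 3699 CPM in LPS and 2353 in IL-4 is less than that of the other markers together. In KO M0, 4 of the 8 markers were called lower and 0 higher, beside 10.5% and 11.8% of all genes. In LPS 5 were lower and 2 higher, beside 14.6% and 16.2%, and in IL-4 1 and 1, beside 18.2% and 17.9%. The part of these markers in the differences below was not tested. In any library, B cell markers summed to at most 5.98 CPM, T and NK cell markers to at most 0.459 and dendritic cell markers to at most 4.68. Mast cell and eosinophil markers summed to at most 5.98 and neutrophil markers to at most 62.9. Each 5.98 is 1 count in KO LPS 7, where 3 counts are 17.9 CPM, so the shallow libraries set no bound this low. Cd3e was at 0 CPM in 5 of the 6 groups and Tpsb2 in all of them, while the mast cell and eosinophil sum was 2.28 to 3.16 CPM in KO M0 and 0.715 to 1.31 in WT M0. In bulk RNA, fewer cells of a type and less RNA per cell cannot be told apart.

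Promoter sequences are shown for 4 members. Gpr18 and Gpr183 are neighbours on chromosome 14, both inside and antisense to Ubac2, and moved in opposite directions with LPS. Gpr132 and Gpr65 are both linked to proton sensing, and both were lower in KO in M0 and IL-4. Each line gives the sense strand upstream of the RefSeq start (GRCm38.p6), 5′ to 3′, in lower case, with capitals marking a match to a searched motif on either strand.

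Gpr18: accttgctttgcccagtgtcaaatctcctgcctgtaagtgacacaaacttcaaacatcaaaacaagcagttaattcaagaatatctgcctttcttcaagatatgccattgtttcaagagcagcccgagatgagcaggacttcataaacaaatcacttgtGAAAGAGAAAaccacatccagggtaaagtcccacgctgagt
Gpr183: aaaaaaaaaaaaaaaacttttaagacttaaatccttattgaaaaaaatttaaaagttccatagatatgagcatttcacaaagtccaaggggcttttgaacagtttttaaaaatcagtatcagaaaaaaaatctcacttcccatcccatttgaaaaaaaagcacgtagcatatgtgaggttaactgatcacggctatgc
Gpr132: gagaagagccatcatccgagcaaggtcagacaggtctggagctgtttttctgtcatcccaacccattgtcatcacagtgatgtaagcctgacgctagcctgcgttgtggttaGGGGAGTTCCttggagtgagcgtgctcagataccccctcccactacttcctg
Gpr65: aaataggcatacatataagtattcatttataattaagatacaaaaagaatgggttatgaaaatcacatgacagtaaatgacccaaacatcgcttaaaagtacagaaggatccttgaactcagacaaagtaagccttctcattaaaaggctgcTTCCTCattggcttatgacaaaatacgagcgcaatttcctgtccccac

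The Gpr18 stretch is chr14:121915889-121916088 on the minus strand, and its capitals mark a match to the ISRE, the element bound by interferon-activated factors, starting 41 bases before the RefSeq start. The Gpr183 stretch, chr14:121965196-121965393 on the minus strand, held no match. The Gpr132 stretch is chr12:112860953-112861116 on the minus strand, with an NF-kB match starting 88 bases before a start that lies 7312 bases inside the annotated gene. The 36 bases nearest that start lie in an annotated exon of Gpr132 itself and are not printed. The Gpr65 stretch is chr12:98268435-98268634 on the plus strand and holds GAGGAA, the core bound by PU.1 and related factors, on the opposite strand 48 bases before the start. Over the 250 bases before each of 27025 promoters in the same RefSeq table, the ISRE was found in 3.04%, NF-kB in 7.01%, the PU.1 core in 23.1%, STAT6 in 5.86% and AP-1 (TGANTCA) in 6.87%. The NF-kB, STAT6 and ISRE patterns are longer or hold ambiguous letters and are given by name. Each motif was searched on its own, so matches of different motifs may overlap. A match describes letters only. The RefSeq table held a promoter for 7 of the 9 members, all but Gpr34 and Gpr162. Of those not printed, Gpr84 held no match to any of the motifs. Gpr35 held none before its first listed start. Before its second it held AP-1 at 184 bases and the PU.1 core at 168 and 12. Ptafr held only the PU.1 core, at 242 bases. Neither NF-kB nor the ISRE was thus found for Gpr84 or Gpr35, which LPS raised.

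LPS changed 8 of the 9 receptors in WT and all 9 in KO, in both directions. In WT 5 were higher and 3 lower than in M0, where 29.4% of the 14693 genes tested were called higher and 28.3% lower. In KO 6 were higher and 3 lower, beside 31.2% and 36% of all genes. IL-4 raised 2 and lowered 5 in WT (30.9% and 29.3% of all genes), and raised 1 and lowered 4 in KO (26% and 25.2%). The balance over all genes turned with RLE scaling, from 4320 higher and 4152 lower to 3615 and 5119 for LPS in WT, from 4535 and 4301 to 3918 and 5026 for IL-4 in WT, and from 3825 and 3709 to 3128 and 4523 for IL-4 in KO. No called fold change of a member changed sign. A gene counts as called, here and below, when edgeR's quasi-likelihood test gave it a p under 0.05 after Benjamini-Hochberg adjustment over all 14693 genes. The contrasts that first drew these genes to notice are not recorded, so the p-values that follow describe a difference against the spread between libraries and are no independent support.

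**Figure D1:**
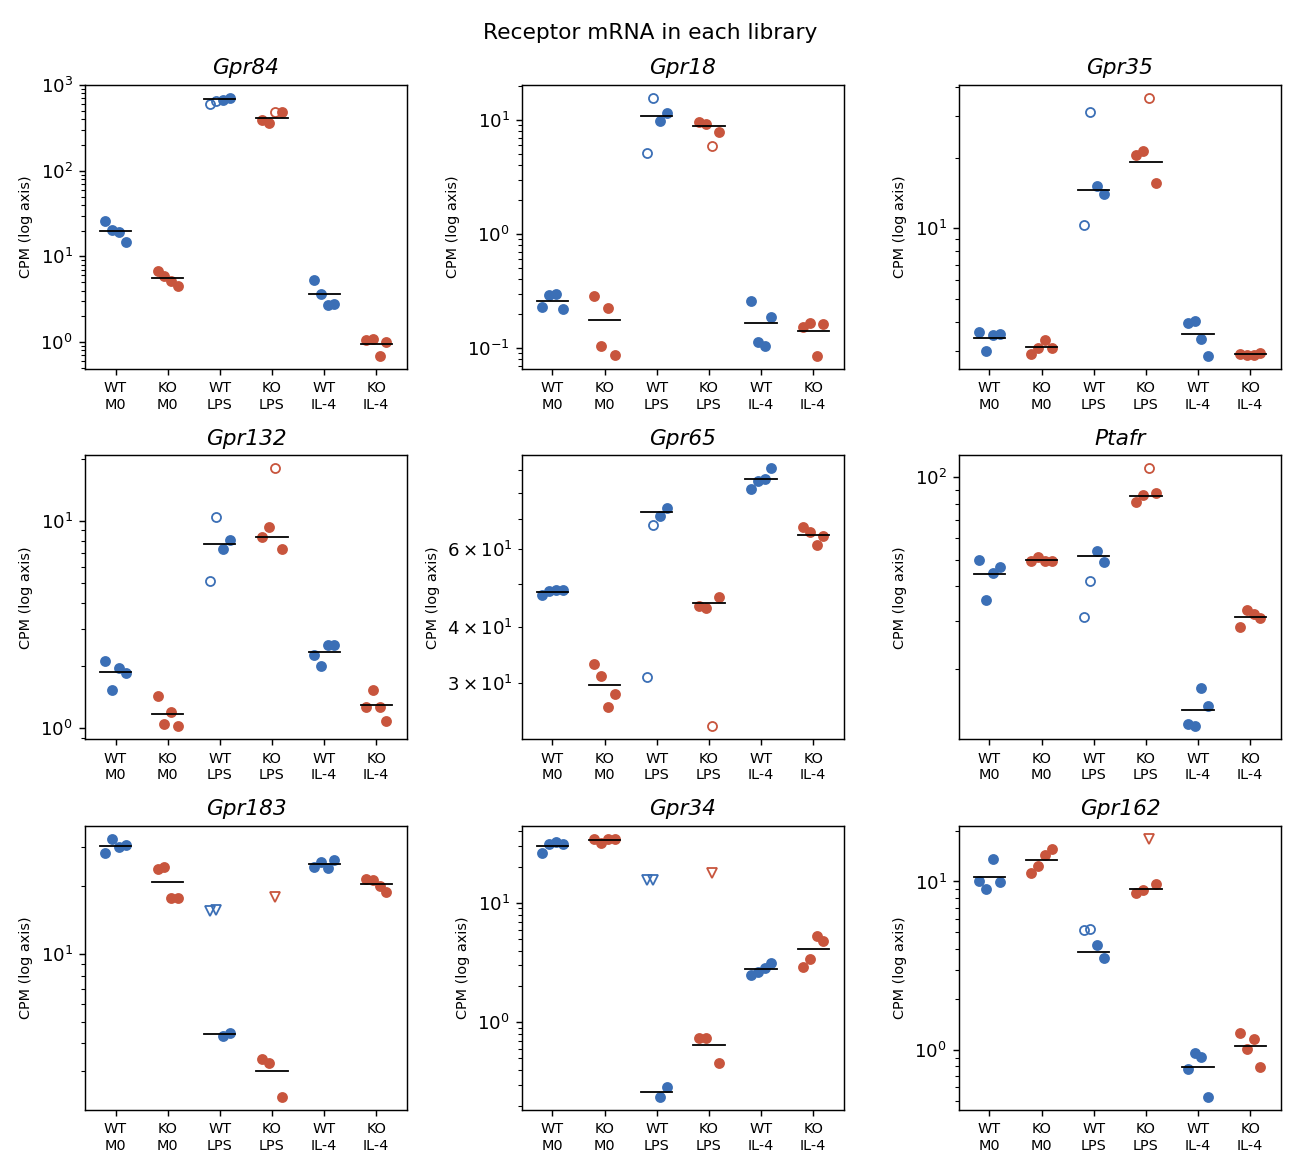
CPM of each receptor in every library (log axis), in WT (blue) and KO (red) cells by state, with a black line at the mean of the deep libraries. Open circles are the 3 shallow libraries and open triangles mark libraries with 0 counts, drawn at the level that 3 counts would give. Gpr84 ran from 0.691 CPM in KO IL-4 7 to 709 CPM in WT LPS 4.

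OGT KO was associated with lower levels of 4 receptors in M0 (Gpr84, Gpr65, Gpr132 and Gpr183) and with higher levels of none, against 10.5% of all genes called lower and 11.8% called higher. DESeq2 too called none higher, and in edgeR's quasi-likelihood test 1 member, Gpr162, was higher at an unadjusted p under 0.05. In LPS, 3 receptors were lower in KO (Gpr84, Gpr65 and Gpr183) and 4 were higher (Gpr162, Gpr34, Ptafr and Gpr35), beside 14.6% and 16.2% of all genes. In IL-4, Gpr84, Gpr132, Gpr65 and Gpr183 were lower and Ptafr and Gpr34 higher, beside 18.2% and 17.9%. Over the 9 members the median log2 fold change of KO against WT was -0.53 in M0, 0.13 in LPS and -0.29 in IL-4, and over all genes it was 0.02, 0.01 and 0.01. The 4 values of WT and the 4 of KO did not overlap for 4 members in M0, 2 in LPS and 5 in IL-4, while this held for 27.1%, 12.9% and 37.1% of all genes. The LPS figures include the 3 shallow libraries and are not comparable with those of M0 and IL-4. Among the deep LPS libraries, 2 in WT and 3 in KO, Gpr132 was the only member to overlap. So few values often lie apart by chance alone. The share of all genes was not counted for these libraries, so this is no result about the members. Gpr84, Gpr65 and Gpr183 passed the test in the same direction in all 3 states, and the share of all genes that did so was not counted. DESeq2 called Gpr183 in none of the 3 states, and the Gpr84 call in LPS was lost with number pairs summed.

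**Figure D2:**
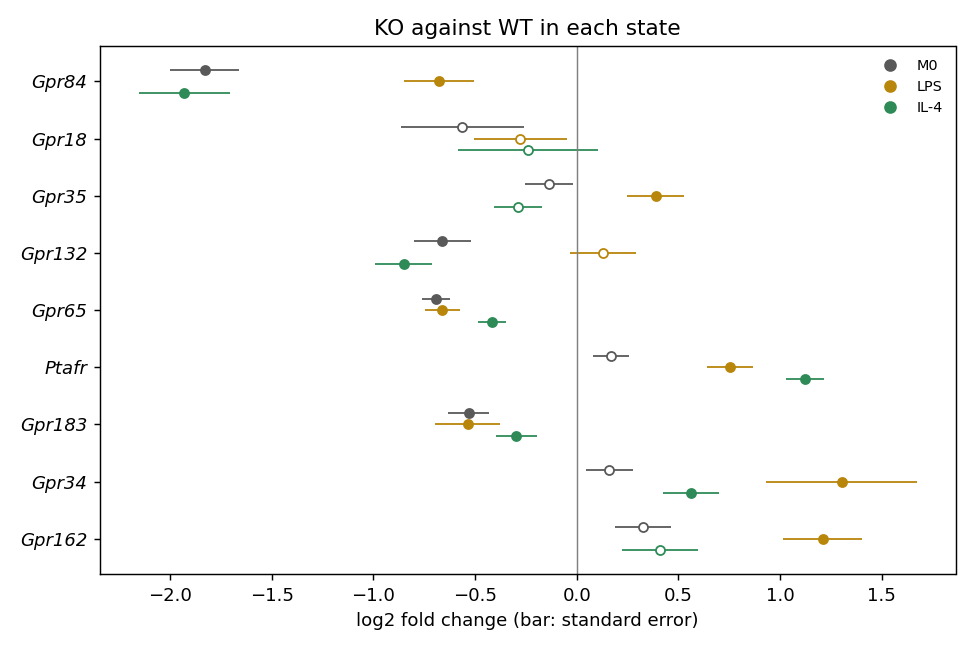
Log2 fold change of KO against WT (x axis, bars are standard errors) for each receptor in M0 (grey), LPS (ochre) and IL-4 (green). Filled points passed an adjusted p of 0.05 and open points did not. Gpr84 lies farthest below 0, at -1.83 in M0 and -1.93 in IL-4, and Ptafr lies above 0 at 0.75 in LPS and 1.12 in IL-4.

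The response to stimulation also differed between genotypes for some members. An interaction, the log2 response of KO minus that of WT, was called for Gpr84, Gpr162, Gpr132 and Ptafr in LPS, and each was positive, where 6.62% of all genes were called higher and 4.79% lower (972 and 704 genes, against 643 and 215 with DESeq2). In IL-4 it was called for Ptafr alone among the 9, again positive, beside 0.47% and 0.667%. With libraries 1 and 2, 3 and 4, 5 and 6, and 7 and 8 of each state summed, none of these interactions was called by edgeR's quasi-likelihood test. Few genes of any kind then were, 58 higher and 7 lower in LPS and 0 and 0 in IL-4, so the loss is not particular to the members. The sum of WT LPS 1 and 2 also stays shallow. These interactions share their M0 libraries with the contrasts above and with each other.

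**Figure D3:**
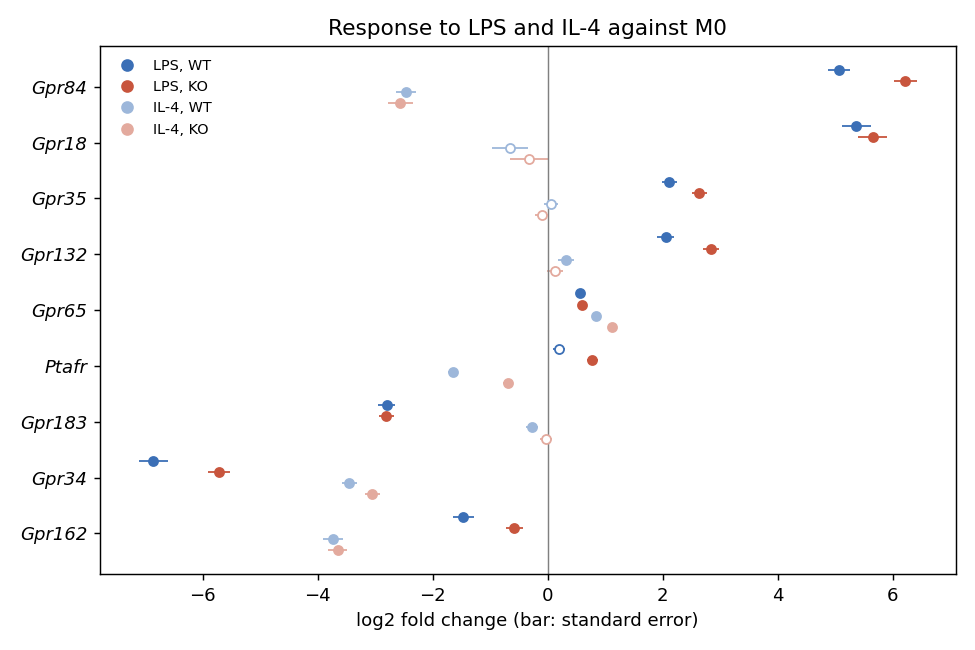
Log2 fold change against M0 (x axis, bars are standard errors) for LPS in WT (blue) and KO (red) and for IL-4 in WT (pale blue) and KO (pale red). Filled points passed an adjusted p of 0.05. Gpr84 and Gpr18 lie above 5 for LPS in both genotypes, and Gpr34 lies lowest, at -6.85 in WT.

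Gpr84 binds medium-chain fatty acids and is known as an inflammation-induced receptor of myeloid cells. In M0 it stood at 26.0, 20.2, 19.2 and 14.7 CPM in WT 1 to 4 and at 6.84, 5.84, 5.22 and 4.50 CPM in KO 5 to 8. In LPS it reached 609, 659, 662 and 709 CPM in WT and 389, 361, 490 and 485 CPM in KO, and it was the only member with more than 80 counts in every shallow library. In IL-4 it fell to 5.34, 3.61, 2.75 and 2.78 CPM in WT and to 1.05, 1.09, 0.691 and 0.991 CPM in KO. Every KO library lay below every WT library in each state. KO against WT was a log2 fold change of -1.83 ± 0.17 (SE) in M0, a 3.56-fold difference (adjusted p = 3.01e-08), -0.68 ± 0.17 in LPS (adjusted p = 0.0039) and -1.93 ± 0.22 in IL-4 (adjusted p = 6.32e-07). The rise with LPS was 33.5-fold in WT and 74.4-fold in KO, and the interaction was 1.15 ± 0.24 (adjusted p = 0.00231). On the log2 scale, though not in CPM, the genotypes thus lay closer together after LPS than before it. IL-4 lowered Gpr84 5.51-fold in WT and 5.91-fold in KO. Leaving out KO 5 and 6 in every state took the LPS difference to -0.46 (adjusted p = 0.0796, within a range of 2.49e-04 to 0.0939 over its alternatives). With number pairs summed, neither the LPS difference (0.0939) nor the interaction (0.13, range 2.74e-04 to 0.13) was called.

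The Gpr84 gene, chr15:103308235-103310612 on the minus strand in GRCm38, shares 681 of its 1725 exonic bases (39.5%) with an annotated antisense gene, Gm49482, which has no row of its own in the counts. The strand setting of the counting is not given, so reads of the pair cannot be told apart. Per kb of exon, the deep libraries held 398 CPM of Gpr84 in WT LPS, the highest of any member in any group.

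Gpr35 responds to the tryptophan metabolite kynurenic acid, among other proposed ligands. It lies at chr1:92950865-92986391 on the plus strand. In M0 it measured 3.61, 3.02, 3.50 and 3.55 CPM in WT and 2.93, 3.09, 3.36 and 3.08 in KO, and these ranges overlap. In LPS it measured 10.3, 31.4, 15.1 and 14.0 CPM in WT and 20.6, 21.3, 35.9 and 15.6 CPM in KO, where the first 2 WT values and the third KO value rest on 2, 6 and 6 counts. LPS raised it 4.32-fold in WT and 6.23-fold in KO (adjusted p = 2.38e-13 and 2.91e-16). The 3 deep KO libraries all lay above the 2 deep WT libraries, at log2 0.39 ± 0.14 (adjusted p = 0.0367). That call was lost in 8 of 16 alternatives, among them those without WT LPS 3, WT LPS 4, KO LPS 5 or KO LPS 6, with adjusted p between 0.0949 and 0.219 for these, and over all its alternatives the p ran from 0.00214 to 0.592. The interaction in LPS, 0.53 ± 0.18, missed the threshold (adjusted p = 0.0627) and passed it without the 3 shallow libraries, without WT LPS 2 or without KO LPS 8 (0.0325, 0.0342 and 0.00819, of a range from 0.00669 to 0.498). In IL-4 the values were 3.94, 4.05, 3.38 and 2.87 CPM in WT and between 2.89 and 2.95 in KO. The difference of -0.29 ± 0.12 did not pass (adjusted p = 0.0607), but did without WT IL-4 4, the only WT library below the KO values (adjusted p = 0.0171, range 0.0171 to 0.33).

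Gpr18 has been linked to N-arachidonoyl glycine and to a resolvin, both lipid mediators. It was scarce in M0, at 0.228, 0.291, 0.299 and 0.219 CPM in WT and 0.283, 0.103, 0.226 and 0.0860 CPM in KO, or between 7 and 28 counts a library. LPS raised it to 9.89 and 11.6 CPM in the deep WT libraries and to 9.56, 9.26 and 7.88 in the deep KO libraries, while the shallow libraries held 1, 3 and 1 counts. The increase was 41.2-fold in WT (log2 5.36 ± 0.25, adjusted p = 6.05e-16) and 50.2-fold in KO (5.65 ± 0.25, adjusted p = 1.38e-16). In IL-4 it stayed low, at 0.259, 0.112, 0.103 and 0.185 CPM in WT and 0.153, 0.166, 0.0851 and 0.161 in KO. No contrast of KO against WT was called for Gpr18. The M0 difference of -0.56 ± 0.30 (adjusted p = 0.189) passed without KO M0 5 (-0.96, adjusted p = 0.0293, range 0.0293 to 0.431). The IL-4 difference from M0 in WT, -0.65 ± 0.31 (adjusted p = 0.0752), passed without WT IL-4 1 (adjusted p = 0.0112, range 0.0112 to 0.176). Gpr18 occupies chr14:121911253-121915781 on the minus strand and shares no exonic base with Ubac2.

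Gpr65, also called TDAG8, is switched on by extracellular acid and raises cyclic AMP. It was lower in KO in each state, and both stimuli raised it in both genotypes. In M0 the WT libraries lay close together at 47.3, 48.1, 48.4 and 48.5 CPM, and the KO libraries at 33, 31, 26.5 and 28.2 CPM. In IL-4 it measured 81.9, 85.1, 86.2 and 90.9 CPM in WT and 67.2, 65.4, 61.2 and 64.1 in KO. In LPS the deep libraries held 71.2 and 74.0 CPM in WT and 44.7, 44.2 and 46.7 in KO, and the shallow ones 30.9 and 68.0 in WT and 23.9 in KO, from 6, 13 and 4 counts. Genotypes did not overlap in M0, in IL-4 or among the deep LPS libraries. KO against WT was -0.69 ± 0.07 in M0 (adjusted p = 8.4e-08), -0.66 ± 0.09 in LPS (adjusted p = 2.52e-06) and -0.42 ± 0.07 in IL-4 (adjusted p = 4.34e-05). IL-4 raised Gpr65 1.79-fold in WT and 2.17-fold in KO, and LPS raised it 1.48-fold and 1.51-fold. The IL-4 interaction of 0.28 ± 0.10 was not called (adjusted p = 0.162). The gene, chr12:98268635-98276644 on the plus strand, shares 511 of its exonic bases (24.7%) with the annotated antisense gene Gm47566, from which its reads cannot be told apart.

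Gpr132 responds to oxidised fatty acids and has been linked to proton and lactate sensing. It was among the scarcer members, at 2.12, 1.54, 1.94 and 1.84 CPM in WT M0 and 1.43, 1.05, 1.20 and 1.02 CPM in KO M0. In IL-4 it was at 2.26, 1.99, 2.53 and 2.51 CPM in WT and 1.27, 1.53, 1.27 and 1.09 in KO. WT lay above KO without overlap in both states, at -0.66 ± 0.14 (adjusted p = 0.00137) for M0 and -0.85 ± 0.14 (adjusted p = 4.48e-05) for IL-4. In LPS the deep libraries held 7.34 and 8.09 CPM in WT and 8.37, 9.32 and 7.36 in KO, which overlap, and the shallow libraries 1, 2 and 3 counts. LPS raised Gpr132 4.14-fold in WT and 7.17-fold in KO, with an interaction of 0.79 ± 0.21 (adjusted p = 0.0169). Without WT LPS 3 that interaction was 0.76 (adjusted p = 0.0751, range 0.00246 to 0.195), and it was not called with number pairs summed (0.195). The small rise with IL-4 in WT, 0.32 ± 0.14 (adjusted p = 0.0462), was lost without any 1 of the 8 WT libraries compared and under 13 of 14 alternatives (adjusted p from 0.0204 to 0.372). Gpr132 lies at chr12:112850873-112868228 on the minus strand.

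Ptafr is the receptor for platelet-activating factor, an ether phospholipid made during inflammation. It did not differ between genotypes beyond the threshold in M0 and was higher in KO under both stimuli. In M0 it measured 49.9, 35.8, 44.7 and 47.2 CPM in WT and 49.6, 51.1, 49.5 and 49.7 in KO, and the ranges overlap (0.17 ± 0.09, adjusted p = 0.174). In LPS it measured 30.9, 41.8, 54.0 and 49.2 CPM in WT and 81.5, 86.0, 108 and 87.7 in KO, with every KO library above every WT library. In IL-4 it measured 12.6, 12.4, 17.1 and 14.6 CPM in WT and 28.5, 32.7, 31.7 and 30.6 in KO, again without overlap. KO against WT was 0.75 ± 0.11 in LPS (1.68-fold, adjusted p = 1.67e-05) and 1.12 ± 0.09 in IL-4 (2.18-fold, adjusted p = 3.19e-09). LPS raised Ptafr in KO (0.78 ± 0.09, adjusted p = 5.24e-08). In WT the response was 0.19 ± 0.11 (adjusted p = 0.119), and without WT M0 2, the lowest WT M0 library, it was -0.03 (adjusted p = 0.822, range 0.0867 to 0.822). IL-4 lowered it 3.13-fold in WT and 1.62-fold in KO. The interactions were 0.58 ± 0.14 in LPS (adjusted p = 0.00824) and 0.95 ± 0.13 in IL-4 (adjusted p = 1.28e-04). Neither was called with number pairs summed (0.128 and 0.228, of ranges from 5.08e-05 to 0.128 and from 5.47e-07 to 0.228), while both differences of KO against WT were (0.00518 and 0.00112). Ptafr lies at chr4:132564067-132582683 on the plus strand, and no annotated exon of another gene shares its exonic bases.

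Gpr34 is a receptor for lysophosphatidylserine, a lipid with which dying cells are recognised, and is abundant in microglia. Both stimuli lowered it in both genotypes, LPS to under 1 CPM. In M0 it stood at 26.3, 31.2, 32.4 and 31.1 CPM in WT and 34.4, 32, 34.5 and 34.5 in KO, ranges that overlap. In LPS the deep libraries held 0.237 and 0.285 CPM in WT, from 14 and 16 counts, and 0.743, 0.734 and 0.459 CPM in KO, from 45, 40 and 27 counts, while all 3 shallow libraries held 0. In IL-4 it stood at 2.48, 2.62, 2.84 and 3.17 CPM in WT and at 2.88, 3.38, 5.30 and 4.82 in KO, where KO 6, 7 and 8 lay above all WT libraries and KO 5 lay among them. The fall with LPS was 116-fold in WT (log2 -6.85 ± 0.26, adjusted p = 4.64e-18) and 52.4-fold in KO (-5.71 ± 0.19, adjusted p = 1.87e-19), and with IL-4 10.9-fold and 8.26-fold. KO was higher by 1.30 ± 0.37 in LPS (adjusted p = 0.00863) and by 0.56 ± 0.14 in IL-4 (adjusted p = 0.00243). The LPS call was lost without WT LPS 3 (1.19, adjusted p = 0.0771) and without KO 5 and 6 (0.82, adjusted p = 0.102, range 2.4e-04 to 0.102). The IL-4 call was lost without KO 7 and 8 (0.17, adjusted p = 0.249, range 2.78e-07 to 0.249), and with number pairs summed neither was called (0.0833 and 0.102). The interaction in LPS, 1.14 ± 0.39, missed the threshold (adjusted p = 0.0578) and passed it without WT M0 1 or KO LPS 8 (0.0468 and 0.0244, of a range from 0.00246 to 0.33). Gpr34, chrX:13632089-13640858 on the plus strand, lies inside Cask on the opposite strand with no shared exonic base. Cask rose with LPS where Gpr34 fell, by 0.61 ± 0.07 in WT and 0.71 ± 0.06 in KO (adjusted p = 2.21e-08 and 9.23e-11).

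Gpr183, also called EBI2, guides immune cells along gradients of dihydroxylated oxysterols. In M0 it measured 28.1, 32.5, 29.8 and 30.5 CPM in WT and 23.8, 24.3, 17.7 and 17.7 in KO, so KO 7 and 8 lay below KO 5 and 6 and all 4 lay below WT. In LPS it fell to 4.31 and 4.46 CPM in the deep WT libraries and to 3.40, 3.28 and 2.31 in the deep KO libraries, and the shallow libraries held 0 counts. In IL-4 it measured 24.3, 25.7, 24.2 and 26.1 CPM in WT and 21.5, 21.4, 19.97 and 18.8 in KO, without overlap. The fall with LPS was 6.96-fold in WT and 6.99-fold in KO (adjusted p = 7.86e-15 and 3.37e-16). KO against WT was -0.53 ± 0.10 in M0 (adjusted p = 4.42e-04), -0.54 ± 0.16 in LPS (adjusted p = 0.0121) and -0.30 ± 0.10 in IL-4 (adjusted p = 0.024). DESeq2 called none of the 3, at adjusted p of 0.244, 0.403 and 0.526, the highest over the alternatives of each, whose lowest were 2.03e-08, 1.04e-04 and 3.32e-04. The LPS call was also lost without WT LPS 3, WT LPS 4 or KO LPS 8 (0.0684, 0.0921 and 0.0863), and the IL-4 call without KO IL-4 8 (0.0587). With number pairs summed none of the 3 was called in edgeR's quasi-likelihood test (adjusted p = 0.114, 0.127 and 0.292). In the LPS groups the mean over all 4 libraries, with its zeros, is 2.19 CPM in WT and 2.25 in KO, whereas the deep libraries average 4.382 and 2.999. IL-4 lowered Gpr183 by 0.27 ± 0.10 in WT on the log2 scale (adjusted p = 0.0237), a call that DESeq2 did not make (adjusted p = 0.352, range 4.71e-04 to 0.352). Gpr183 lies at chr14:121952551-121965195 on the minus strand. Its host gene Ubac2 rose with LPS by 0.69 ± 0.07 in WT and 0.45 ± 0.06 in KO (adjusted p = 1.16e-09 and 2.12e-07), the direction of Gpr18 and not of Gpr183.

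Gpr162 is an orphan receptor, with no agreed ligand. In M0 it measured 10.1, 9.01, 13.5 and 9.89 CPM in WT and 11.2, 12.4, 14.3 and 15.5 in KO, which overlap. In LPS it was at 4.19 and 3.49 CPM in the deep WT libraries and at 8.52, 8.86 and 9.60 in the deep KO libraries, and the shallow libraries held 1, 1 and 0 counts. In IL-4 it measured 0.776, 0.966, 0.915 and 0.528 CPM in WT and 1.26, 1.01, 1.16 and 0.790 in KO. The deep LPS libraries of the genotypes lay apart, and KO was higher by 1.21 ± 0.19 (2.31-fold, adjusted p = 3.98e-05). In M0 and IL-4 the differences of 0.33 ± 0.14 and 0.41 ± 0.19 did not pass (adjusted p = 0.0898 and 0.0915). Without WT M0 3, the highest WT library, the M0 difference passed (adjusted p = 0.0292, range 0.0174 to 0.502), and without KO IL-4 8 so did that in IL-4 (adjusted p = 0.0424, range 0.0424 to 0.317). LPS lowered Gpr162 2.76-fold in WT and 1.5-fold in KO, with an interaction of 0.88 ± 0.24 (adjusted p = 0.0154) that was lost without WT LPS 4 (0.78, adjusted p = 0.097, range 8.57e-04 to 0.124) and with number pairs summed (0.124). IL-4 lowered it 13.3-fold in WT and 12.5-fold in KO. Gpr162 lies at chr6:124858444-124863983 on the minus strand.

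Levels of different genes were compared per kb of merged exon over the deep libraries. In WT M0, Gpr65 was first at 23.2 CPM per kb, followed by Gpr34 (14.5), Ptafr (12.2), Gpr84 (11.6) and Gpr183 (10.5), then Gpr162 (2.77), Gpr35 (0.707), Gpr132 (0.685) and Gpr18 (0.173). The library ranges of Gpr34, Ptafr, Gpr84 and Gpr183 overlap from each neighbour to the next, and so do those of Gpr35 and Gpr132. In WT LPS the order was led by Gpr84, and Gpr34 was last at 0.125 CPM per kb. In WT IL-4, Gpr65 led at 41.6 CPM per kb and Gpr183 was next at 8.69. Within a gene, the mean of the deep libraries was highest in WT LPS and lowest in KO IL-4 for Gpr84 and Gpr18, and highest in KO LPS for Gpr35 (lowest in KO IL-4), Gpr132 (KO M0) and Ptafr (WT IL-4). Gpr65 was highest in WT IL-4 and lowest in KO M0. The receptors that LPS lowered were highest in M0, in WT for Gpr183 (lowest in KO LPS) and in KO for Gpr34 (WT LPS) and Gpr162 (WT IL-4). Several of these places are not beyond the spread, since the deep libraries overlapped with the next group. This held for the first place of Gpr34, Gpr162 and Gpr132 and for the last place of Gpr132, Gpr35, Gpr18 and Gpr162.

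**Figure D4:**
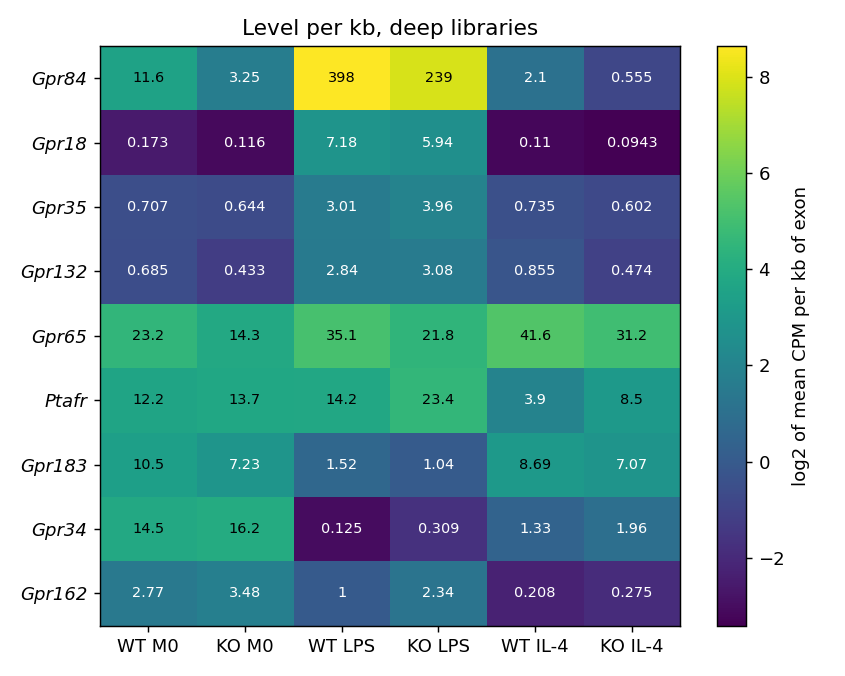
Mean CPM per kb of merged exon over the deep libraries, printed in each cell, for each receptor (rows) in each group (columns), with colour on a log2 scale. Gpr84 is highest in WT LPS at 398, and Gpr65 is at 14.3 or more in every group.

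The genes whose levels ran most closely with each member were ranked by Pearson's r of log2 CPM over the 21 deep libraries, which share the 6 groups, so r mostly reflects group means. For Gpr84 they were Tmem176a, Slc25a37 and Lst1 (each r = 0.99). For Gpr35 they were Tap2, Slc11a2 and Xkr8 (r = 0.992, 0.992 and 0.991), and for Gpr18 Zufsp, Cx3cl1 and Parp10 (0.989, 0.988 and 0.987). Gpr132 ran with Il2rg, C3 and Samsn1 (0.988, 0.983 and 0.982), and Gpr65 less closely with 2610001J05Rik, Pycard and Zdhhc21 (0.955, 0.954 and 0.942). For Gpr34 the first was Gpr157 (0.99), for Gpr183 Deptor (0.99), for Gpr162 P2ry13, an ADP receptor (0.979), and for Ptafr P4ha3 (0.973). Among the members, Gpr18 and Gpr35 had r = 0.969 and Gpr35 and Gpr183 had r = -0.953.

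Of 42 other lipid and metabolite receptors, 29 passed the low-count filter. KO was higher for 2 and lower for 5 of these in M0, 7 and 6 in LPS, and 4 and 3 in IL-4. Of all genes, 11.8% and 10.5% were called so in M0, 16.2% and 14.6% in LPS, and 17.9% and 18.2% in IL-4. In WT, LPS raised 14 and lowered 3 (29.4% and 28.3% of all genes), and IL-4 raised 9 and lowered 14 (30.9% and 29.3%). The median log2 fold change of the 29 was -0.11, 0.08 and 0.14 for KO against WT in M0, LPS and IL-4. S1pr3, a sphingosine-1-phosphate receptor, was lower in KO M0, at 20.1 ± 1.26 against 27.1 ± 1.54 CPM, and higher in KO LPS, at 173 ± 14.6 against 76.8 ± 4.80 (SD, n = 4). The log2 fold changes were -0.43 ± 0.06 and 1.12 ± 0.07 (adjusted p = 8.94e-06 and 3.44e-11). S1pr1 was higher in KO in LPS (0.52 ± 0.07) and IL-4 (0.34 ± 0.06), and Ptger4, a prostaglandin E receptor, was lower in M0 (-0.55 ± 0.09), LPS (-0.59 ± 0.11) and IL-4 (-0.45 ± 0.09). Of the lysophosphatidic acid receptors, Lpar6 was lower in KO in M0 (-0.56 ± 0.07) and IL-4 (-0.20 ± 0.08). In LPS, Lpar1 was higher in KO (0.48 ± 0.08) and Lpar5 (-1.09 ± 0.25) and Lpar2 (-0.98 ± 0.33) were lower, and in IL-4 Lpar4 was higher (0.52 ± 0.19); the last 3 genes were chosen after their values were seen. S1pr4 was higher in KO in M0 (0.75 ± 0.23) and IL-4 (1.14 ± 0.22). In WT, LPS raised Hcar2, which binds niacin and hydroxybutyrate, 17.6-fold and Gpr31b 69.6-fold.

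The enzymes and transporters that make, remove or carry the ligands numbered 35, of which 32 were tested. KO was higher for 2 and lower for 2 in M0, 8 and 2 in LPS, and 3 and 5 in IL-4. The shares of all genes were 11.8% and 10.5%, 16.2% and 14.6%, and 17.9% and 18.2%. Medians of the list were 0.06, 0.14 and -0.04. For the oxysterol ligands of Gpr183, Ch25h, which makes the precursor, rose 13-fold with LPS and 16.4-fold with IL-4 in WT. In IL-4 it was lower in KO, at 28.4 ± 4.69 against 60.1 ± 7.24 CPM (-1.08 ± 0.12, adjusted p = 2.43e-07). Cyp7b1, which adds the further hydroxyl group, rose with LPS in WT by 2.88 ± 0.19, and Cyp27a1, a sterol hydroxylase, fell by 2.90 ± 0.20 on the log2 scale. Lpcat2, the inducible enzyme that makes platelet-activating factor, was lower in KO in M0 (-0.56 ± 0.09), LPS (-0.45 ± 0.10) and IL-4 (-0.43 ± 0.09), the opposite direction to Ptafr in LPS and IL-4. It was lowered by IL-4 in WT, by 1.79 ± 0.09, while its relative Lpcat1 was raised by 0.85 ± 0.05. In LPS, KO was higher for Napepld, which releases N-acylethanolamines (1.31 ± 0.13), for the lactate carrier Slc16a1 (0.995 ± 0.11) and for the phospholipase Pla2g4a (0.62 ± 0.09), which was lower in KO IL-4 (-0.25 ± 0.07). Slc16a1 was also higher in KO M0 (0.59 ± 0.08), where Crot was lower (-0.27 ± 0.08), and Alox15 was higher in KO in M0 (1.57 ± 0.49) and, at a mean of 0.52 CPM, in IL-4 (1.64 ± 0.35).

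Genes of G protein and cyclic AMP signalling numbered 50, of which 49 were tested. KO was higher for 4 and lower for 5 in M0, 14 and 11 in LPS, and 14 and 7 in IL-4. The shares of all genes were 11.8% and 10.5%, 16.2% and 14.6%, and 17.9% and 18.2%. Medians of the list were -0.03, 0.01 and 0.07. The adenylyl cyclase Adcy3 was higher in KO in M0 (0.67 ± 0.08), LPS (0.40 ± 0.11) and IL-4 (0.67 ± 0.08), and Pde4b, which breaks down cyclic AMP, was lower in M0 (-0.69 ± 0.11) and IL-4 (-0.97 ± 0.12). The receptor kinase Grk6 was lower in KO in M0 (-0.35 ± 0.06), LPS (-0.59 ± 0.07) and IL-4 (-0.48 ± 0.06). Among the RGS proteins, which switch G proteins off, Rgs16 was lower in KO in M0 (-0.51 ± 0.06) and IL-4 (-0.24 ± 0.06) and higher in LPS (0.27 ± 0.08). In LPS, Rgs1 was also higher in KO (0.88 ± 0.10) and Rgs18 lower (-1.39 ± 0.16). Gna13, a G protein alpha subunit, was higher in KO in LPS (0.51 ± 0.06) and IL-4 (0.21 ± 0.05). LPS in WT raised Pde4b 13.5-fold and lowered Rgs10 4.3-fold and Gng2 3.9-fold, and IL-4 lowered Gng2 2.91-fold and raised Gna15 1.9-fold and Gnai3 1.5-fold. All adjusted p-values of the differences described as higher or lower for Lpar4 and the other genes named from the 3 lists, from edgeR's quasi-likelihood test with Benjamini-Hochberg adjustment, were at most 0.0396.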

How the data were processed

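The submitters' processing notes list TopHat2 2.1.0, HTSeq 0.9.1 and the build mm10 (GRCm38). The authors deposited raw counts per gene symbol, 24421 a library with 5 summary lines, which held 8.76 to 9.98% of all counted lines and were left out. Annotation, library kit and strandedness: not given in the sources used here. In R 4.3.3, edgeR 4.0.16 was run with TMM scaling, filterByExpr and 1 quasi-likelihood fit of all 24 libraries (18 residual degrees of freedom), tested on simulated data. SE is the log2 fold change divided by the square root of its F statistic. Alternatives were DESeq2 1.42.0, other scaling, filters, sample sets and left-out libraries. Named genes are the members, Ogt, genes overlapping a member, up to 3 called genes with the smallest adjusted p per list and comparison, and the 3 most alike per member, of which the first alone is printed for 4. Members and lists were chosen with earlier results of these data known. Positions are from GENCODE M21, and promoters from RefSeq (GRCm38.p6).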

Additional observations from a re-analysis of the deposited data

Results flagged for a closer look

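In 54 groups of 4 values (9 receptors in 6 groups), 6 held a library set apart from the other 3 by most of the group's range, and chance alone gives about 1 in 20. Of the 6, 3 are shallow libraries: Gpr65 in WT LPS 1 (30.9 CPM, from 6 counts), Gpr65 in KO LPS 7 (23.9 CPM, 4 counts) and Gpr162 in KO LPS 7 (0 CPM). The others are the lowest value of Gpr18 in KO IL-4 7 (0.0851 CPM, 8 counts), the highest of Ptafr in KO M0 6 (51.1 CPM) and the lowest of Gpr34 in KO M0 6 (32 CPM).

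The response to a stimulus differed between genotypes by the interaction test for 4 receptors. In LPS the response of KO minus that of WT was 1.15 for Gpr84, 0.88 for Gpr162, 0.79 for Gpr132 and 0.58 for Ptafr on the log2 scale. In IL-4 it was 0.95 for Ptafr.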

How the results depend on the processing

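Over 24 alternatives that leave out 1 library and 9 others, 66 of the 81 member fold changes were followed, the other 15 being uncalled and smaller than their SE. Of 1105 values, 1037 kept their direction and side of the threshold, 48 lost a call, 19 gained one and 1 reversed (Ptafr, LPS in WT, -0.0285 without WT M0 2, within -0.0285 to 0.2429 over left-out libraries). DESeq2 gave no adjusted p for 4 interactions, which are in none of these counts. Of 7 members called for KO against WT in LPS, 4 were called without KO 5 and 6, 3 with number pairs summed (1 with 2, 3 with 4 and so on), and 4 to 7 with 1 library left out. Of 4 called in the LPS interaction, 2 were called by DESeq2, which gave Gpr132 and Gpr162 no adjusted p, and 0 with pairs summed. In the IL-4 interaction 1 was called, against 2 with the replicate block (Gpr65 added), 4 without KO 5 and 6 and 0 with pairs summed. Without the 3 shallow libraries the LPS counts were 7 (KO against WT), 8 (WT response), 9 (KO response) and 5 (interaction). The causes were not tested. WT LPS 1 and 2 hold 209368 and 201097 counts, so their sum stays shallow and WT LPS keeps a single deep sample. In WT M0, chi-square per degree of freedom was 32.19 (1 with 2) and 26.81 (3 with 4), against 12.1 to 31.25 between the pairs. The shallow sum, the smaller number of samples after summing and likeness within the pairs cannot be told apart.

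Counts over all genes are given as higher and lower. For KO against WT in M0 they were 1738 and 1541, against 767 and 671 by DESeq2 and 285 and 272 with pairs summed, and 2564 lower without KO 5 and 6. In LPS they were 2384 and 2150, against 1142 and 946 with pairs summed and 1046 lower by DESeq2, and in IL-4 2632 and 2675, against 1482 and 1309 by DESeq2 and 934 and 896 with pairs summed. For IL-4 they were 4535 and 4301 in WT, against 2949 and 3446 by DESeq2, and 3825 and 3709 in KO, against 2145 and 2697 by DESeq2, with 2139 lower with pairs summed. The LPS interaction gave 972 and 704, against 1617 and 1367 with the replicate block, 58 and 7 with pairs summed, and 1548 higher without KO 7 and 8. The IL-4 interaction gave 69 and 98, against 492 and 613 with the replicate block, 381 and 296 without KO 5 and 6, 135 and 165 with the compared groups alone, 35 and 47 by DESeq2, 0 and 0 with pairs summed, and 39 lower without KO 7 and 8. With 1 library left out these last ran from 27 to 148 and from 33 to 212, those lower in the LPS interaction from 225 to 971, those lower for KO in LPS from 1275 to 2144 and those higher for KO in M0 from 1113 to 1556.

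Same-numbered libraries of different states deviated together in KO (r from 0.346 to 0.669 in 10 of 10 pairs). In WT, r ran from -0.102 to 0.707 over 8 such pairs, 5 of them over 0.1. The WT median was 0.18 for same numbers and -0.0664 for different numbers. With only 2 deep WT LPS libraries, their deviations mirror each other and are not separate evidence. Whether the numbers are a pairing is therefore not settled, and the main fit does not use them. Different-numbered KO libraries at r over 0.1 (10 of 30 pairs) lay within 5 and 6 or within 7 and 8. RLE scaling shifted the median fold change of all genes by less than 0.1 on the log2 scale but turned the balance of calls, to 3615 and 5119 for LPS in WT, 3918 and 5026 for IL-4 in WT and 3128 and 4523 for IL-4 in KO.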
